A study of Mus musculus with 8 samples.

Results

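The genes described here are 34 genes of fatty acid oxidation, most of them known targets of the nuclear receptor PPAR-alpha, in the livers of mice fed ethanol and given carbon tetrachloride. They were chosen by symbol from a list of the receptor, its coactivators and the enzymes of fatty acid uptake, activation and oxidation, and were read from a table of 22155 genes counted in 8 libraries. All 34 were in the table, and all 34 were among the 13999 genes that passed the filter on low counts and were tested. The rule that picks them uses symbols only, but the list was chosen with earlier results of these data known.

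The 8 libraries came from whole liver of C57BL/6 mice aged 8 to 10 weeks and fell into 4 groups of 2. The Yap control group was homozygous for a floxed Yap1 allele and received an AAV8 virus carrying GFP. The Yap1 knockout group received AAV8-iCre instead, a virus bringing in the Cre recombinase to remove Yap1 from hepatocytes, so that the other cells of the liver still carry it. The Ctgf control group was homozygous for a floxed Ctgf allele, and the Ctgf knockout group is labelled as a conditional knockout of Ctgf, with a Cre driver not given in the labels. No virus is named for either Ctgf group. All 4 groups shared the treatment, which was a liquid diet with 1% ethanol for 2 days and 2% ethanol for 10 days, and 1 dose of carbon tetrachloride (1 µl for each gram of the mouse) given 2 days before the animals were killed. None of the groups was untreated, so every value here is a value in an injured liver. The labels do not say that the replicates were separate animals. The p-values therefore set each difference only against the scatter of these samples, and that scatter may be technical.

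PPAR-alpha is a nuclear receptor that fatty acids activate. In hepatocytes it pairs with the retinoid X receptor on DNA elements called DR1 and raises transcription of the genes that take up, activate and oxidise fatty acids, above all during fasting. Long-chain fatty acids enter mitochondria by the carnitine shuttle and are shortened there by beta oxidation, while very long chains are shortened in peroxisomes and acyl-CoA thioesterases release the free acid again. Yap1 is a transcriptional coactivator of the Hippo pathway, and Ctgf is a secreted protein encoded by a well known Yap1 target gene.

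Levels are in CPM, the usual unit of read counts scaled to library size. Total counts ran from 26904021 to 33488609 per library. The targeted gene was checked first. Yap1 stood at 107 and 76.1 CPM in the Yap controls and at 31.0 and 32.5 in the Yap1 knockouts, and at 132 to 140 in the 4 libraries of the Ctgf line. The Ctgf controls held 28.8 and 32.1 CPM of Ctgf, the library labelled Ctgf knockout 1 held 8.02, and the library labelled Ctgf knockout 2 held 49.2, which goes against its label. In the Yap line Ctgf had 96.8 and 50.1 CPM without the deletion and 406 and 324 CPM with it. Yap control 2 stood apart as well. The summed level of 12 exocrine pancreas markers was 12175 CPM there and 3.35 to 7.58 CPM in the other 7 libraries. Log2 fold changes of members in the Yap line are therefore given against both Yap controls and against Yap control 1 alone, and the leading values of the Ctgf line also for each library labelled knockout alone. The liver label was borne out by 10 hepatocyte markers, whose summed level was between 61289 and 116030 CPM in all 8 libraries.

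In the Yap line, most members were lower in the Yap1 knockouts than in the Yap controls, but none passed the threshold, and most of the difference came from Yap control 2. Of the 34 members, 30 had a log2 fold change below 0 and 4 above it, with a median of -0.52 against -0.0046 over all genes tested. The members lowest in the knockouts were the thioesterases Acot1 and Acot3 and the peroxisomal thiolase Acaa1b, at -3.31, -2.76 and -2.87 on the log2 scale. The coactivator gene Ppargc1a went the other way, at 1.00. At an adjusted p under 0.05 in edgeR's quasi-likelihood test, 0 of 34 members passed, where 0.0286% of all genes did (4 genes). At an unadjusted p under 0.05, 12 members were lower, where 7.14% of all genes were, and 1 was higher, where 6.64% were. The 2 knockouts lay below both controls for 13 members, where 20.8% of all genes did so, and above both for 1 member, where 23.6% of all genes did.

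Without Yap control 2 the picture of the whole list differed. A fit with 1 Yap control takes the scatter of that group from the other groups. Its counts past a threshold therefore do not measure how Yap controls differ from each other. Against Yap control 1 alone, 17 members lay above 0 and 17 below, and the median was -0.014. No member passed the threshold, where 0.28% of all genes did. At an unadjusted p under 0.05, 4 members were higher and 6 lower, where 7.76% and 7.02% of all genes were. Against Yap control 2 alone the median was -0.87, and 21 members fell and 1 rose past the threshold, where 25.8% of all genes passed it in either direction. With DESeq2 on all 8 libraries, 4 members passed where 3.67% of all genes did. These were Acot1, Acaa1b and Acot3, lower with adjusted p-values of 4.3e-05, 0.000117 and 0.00458, and Ppargc1a, higher with an adjusted p of 0.00817. When Yap control 2 and the library labelled Ctgf knockout 2 were both left out, 3 members passed higher (Ppargc1a, Acot2 and Pdk4) and 2 lower (Ppara and Acot1), where 6.58% of all genes passed in either direction.

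**Figure D1:**
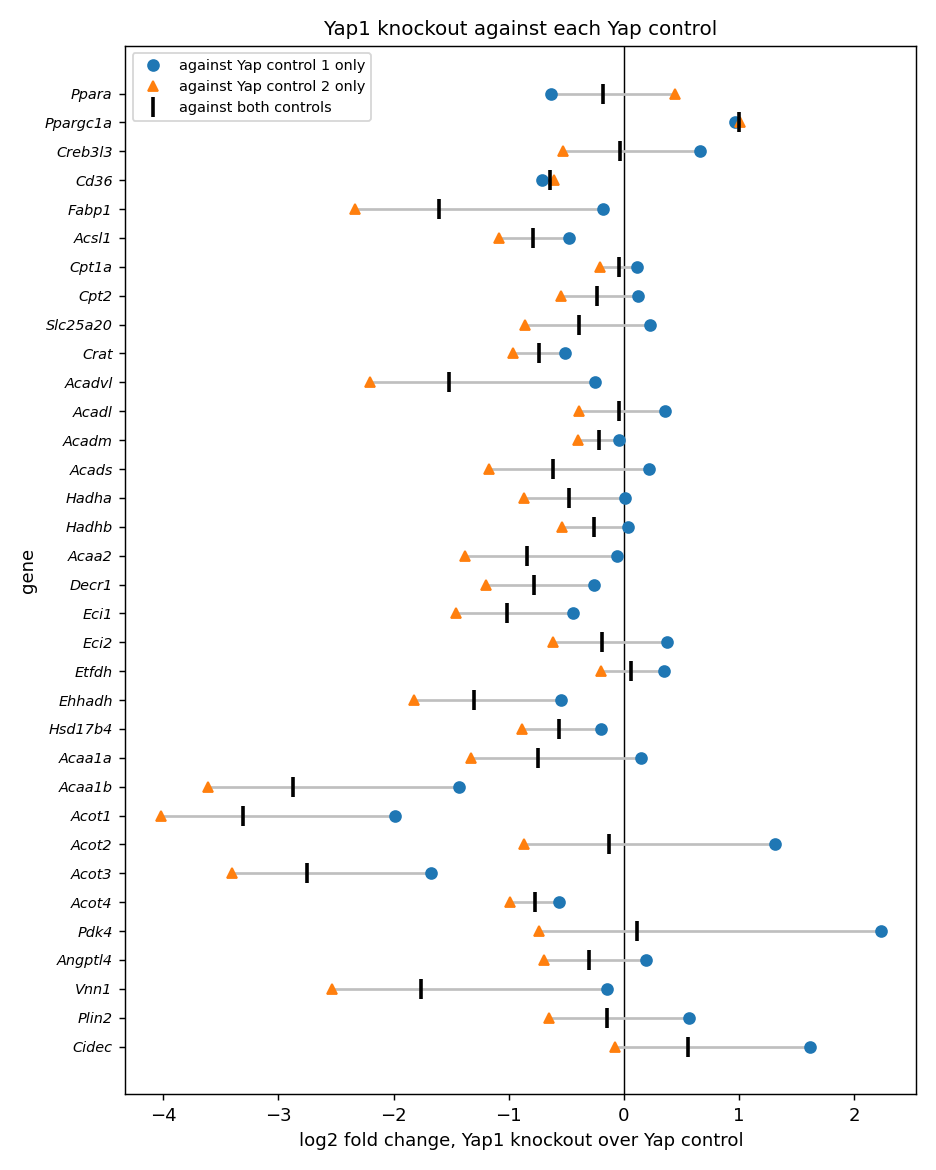
Log2 fold change of each of the 34 members (rows) in the Yap1 knockouts over the Yap controls, against both controls (black bars), against Yap control 1 only (circles) and against Yap control 2 only (triangles). Acot1, Acot3, Acaa1b, Acot4 and Cd36 lie below 0 against each control, Ppargc1a lies near 1 against each, and many of the other members cross 0 or come close to it.

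The libraries themselves show where that dependence sits. Yap control 2 held the highest level of the 8 libraries for 29 of 34 members, where 23.8% of all genes had their highest level there. The 34 members together made up 1.29% of its counts, and 0.586% to 0.854% of the counts of each other library. Within the Yap control group, 31 members were higher in replicate 2 and 3 were lower, 24 of them by more than 1.5 times, and the median difference was 0.97 on the log2 scale. That median was 0.29 between the 2 Yap1 knockouts, 0.083 between the Ctgf controls and 0.20 between the libraries labelled Ctgf knockout. Over all genes the log2 CPM of the 2 Yap controls had a Pearson correlation of 0.941, and the other 3 pairs of replicates had 0.976 to 0.996; this is a correlation across genes within libraries, and genes are not independent replicates.

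Some sums of cell and zone markers also set Yap control 2 apart from Yap control 1, and others did not. The hepatocyte sum was 116030 CPM in Yap control 2 and 65199 in Yap control 1, with 74561 and 90686 in the Yap1 knockouts. In the Ctgf line it was 107770 in the library labelled Ctgf knockout 2 and 61289 to 66673 in the others. The members made up 0.790% of the counts of that library labelled Ctgf knockout 2. The sum of 13 pericentral hepatocyte markers was 1679 CPM in Yap control 2, 592 in Yap control 1 and 605 and 667 in the Yap1 knockouts, while the 4 libraries of the Ctgf line held 1720 to 2051. In a sample of whole liver, fewer cells of a type and less RNA per cell cannot be told apart. Adipocytes also express fatty acid genes. The sum of 12 adipocyte markers did not set Yap control 2 apart, at 120 CPM there and between 60.3 and 153 CPM in the other libraries. Adipoq, a defining one of these markers, was low everywhere, at 0.700 CPM in Yap control 2 and at 0 or at most 0.0569 in the others. The sum of 12 periportal hepatocyte markers was 6216 and 5587 CPM in the Yap controls and 8118 and 9238 in the Yap1 knockouts. Cholangiocyte markers summed to 1499 CPM in Yap control 2 and to 268 to 657 elsewhere, and endothelial markers to 571 there and 931 in Yap control 1. Its share of mitochondrial counts was the lowest of the 8 libraries, 2.12%. Neutrophil markers were higher in the Yap1 knockouts, with sums of 1036 and 520 CPM against 142 and 259 in the Yap controls. The part of these differences in the members' levels was not tested.

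**Figure D2:**
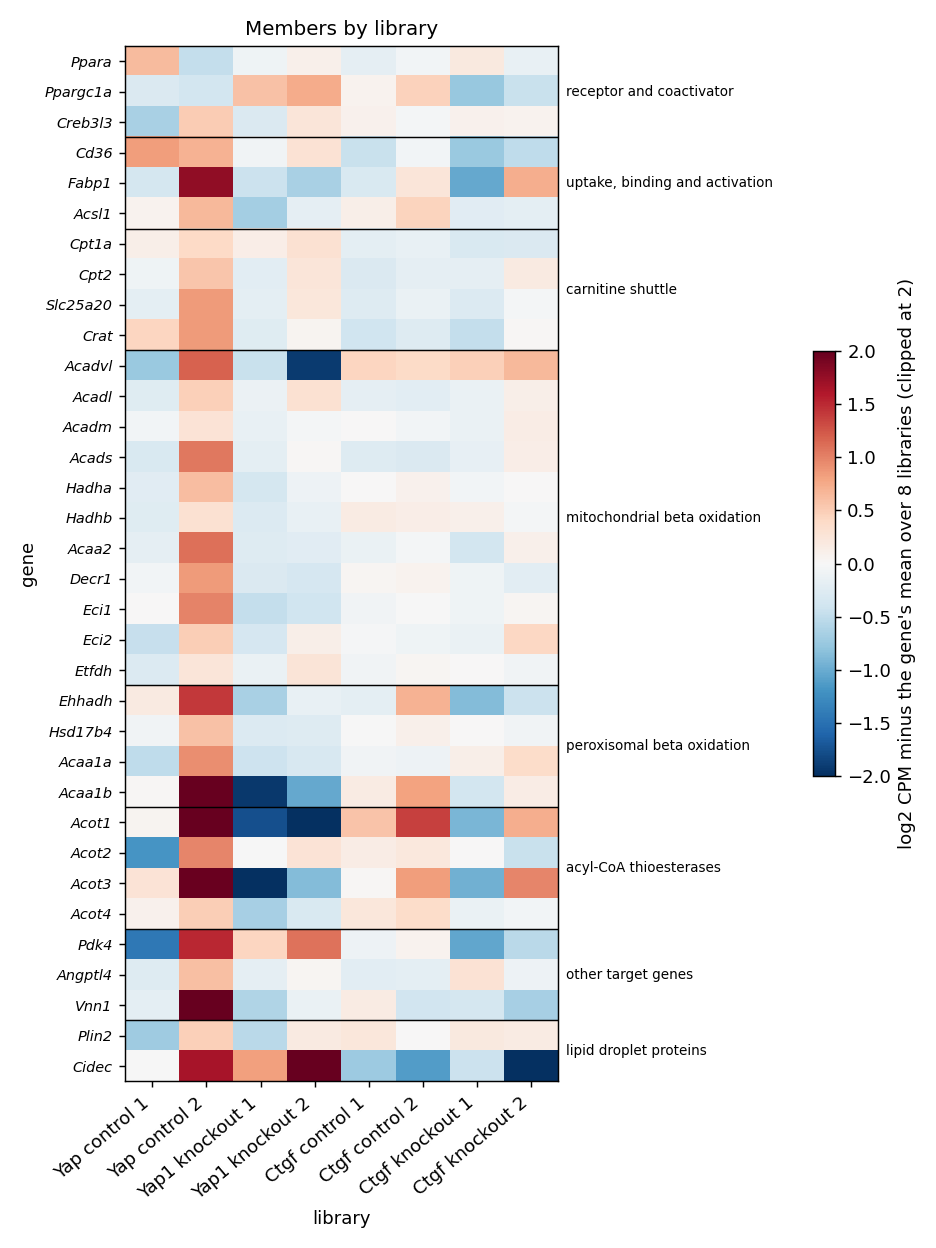
Level of the 34 members (rows, grouped by role) in the 8 libraries (columns), as log2 CPM minus the gene's mean over the 8 libraries, with colours clipped at 2 in either direction. Yap control 2 is the highest library for 29 of 34 members, and Acaa1b, Acot1 and Acot3 are blue in both Yap1 knockouts, while Acadvl is dark blue in Yap1 knockout 2 only.

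The receptor itself did not follow its targets. Ppara, which encodes PPAR-alpha, stood at 92.1 and 42.7 CPM in the Yap controls, 55.5 and 63.2 in the Yap1 knockouts, 52.4 and 56.8 in the Ctgf controls and 68.0 and 53.6 in those labelled Ctgf knockout. Its highest and its lowest library were thus the 2 Yap controls, and the library with the lowest Ppara was the library with the highest level of most other members. The log2 fold change was -0.18 ± 0.336 (SE) in the Yap line, with an adjusted p of 0.805 in edgeR, and 0.15 ± 0.336 in the Ctgf line. Without Yap control 2 the Yap value was -0.63.

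Ppargc1a encodes PGC-1 alpha, a coactivator of PPAR-alpha and other nuclear receptors that raises mitochondrial gene expression. It stood at 26.6 and 25.3 CPM in the Yap controls and at 49.0 and 54.7 in the Yap1 knockouts, and at 34.1 and 45 in the Ctgf controls against 19.4 and 23.9 in those labelled Ctgf knockout. The 2 Yap1 knockouts held the 2 highest of the 8 values, which 12.9% of all genes did, and no other member did. The log2 fold change was 1.00 ± 0.218 in the Yap line (adjusted p = 0.153 in edgeR) and -0.87 ± 0.218 in the Ctgf line (adjusted p = 1). The groups did not overlap in either line, and the replicates of each group lay close together, so that the Yap value was 0.96 against Yap control 1 and 1.01 against Yap control 2. The difference between these effects was 1.87 ± 0.308 with an adjusted p of 0.271 in edgeR, the smallest of any member for that difference. Creb3l3, a liver transcription factor that works together with PPAR-alpha, showed no such split. Its levels were 195 and 435 CPM in the Yap controls, 251 and 365 in the Yap1 knockouts and 298 to 326 in the Ctgf line, with a log2 fold change of -0.03 ± 0.371 in the Yap line and 0.66 against Yap control 1 alone.

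The promoters of the members were searched for the DR1 element, which is 2 copies of AGGTCA in the same direction with 1 base between them. Both strands of the windows from 250 bases before to 50 after each RefSeq gene start were read (GRCm38.p6), and up to 2 mismatches in the 12 fixed bases were allowed. RefSeq windows were matched for 28 members (32 windows). A match was found for 6 of the 28 members, while 4.4% of 27025 genes and 3.86% of 32851 windows held one, and at most 1 mismatch was found for 1 member, Fabp1, and in 0.554% of all windows. The Fabp1 window and, of the 5 windows with 2 mismatches, the first 4 by gene symbol are shown around their matches. Each is 53 bases, 5′ to 3′ on the strand of its gene, and the capitals mark the matched 13 bases.
Fabp1: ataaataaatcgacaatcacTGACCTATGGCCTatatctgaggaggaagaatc
Acot4: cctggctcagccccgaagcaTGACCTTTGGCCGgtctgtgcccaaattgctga
Cd36: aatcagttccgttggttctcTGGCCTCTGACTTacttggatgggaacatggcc
Creb3l3: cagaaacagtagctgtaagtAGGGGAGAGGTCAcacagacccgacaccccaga
Plin2: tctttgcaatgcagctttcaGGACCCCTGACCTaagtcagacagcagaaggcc
The Fabp1 stretch lies at chr6:71199792-71199844 on the plus strand and has 1 mismatch; the others have 2. Those of Acot4 (chr12:84038346-84038398, plus strand), Cd36 (chr5:17835927-17835979, minus strand), Creb3l3 (chr10:81092768-81092820, minus strand) and Plin2 (chr4:86670252-86670304, minus strand) follow. In the stretch of Creb3l3 the match reads in the direction of the gene, and in the other 4 on the opposite strand. The GENCODE M21 models place the Fabp1 and Acot4 stretches across the start of the gene (18 and 20 bases in the first exon), those of Cd36 and Creb3l3 inside a longer gene model, with 0 and 14 bases in an exon, and that of Plin2 before the gene. The match that is not shown, also with 2 mismatches, was in an exon of Slc25a20. A match of letters is a description of the window and no measurement of binding. Of the 6 members with a match, the Yap1 knockouts lay below both Yap controls for Acot4, Cd36 and Fabp1. Over all genes, 20.8% did so. The knockouts lay between the controls for Creb3l3, Plin2 and Slc25a20. Whether a match goes with the level of a gene was not tested.

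Uptake, binding and activation of fatty acids are covered by 3 members, all of them below 0 in the Yap line, with a median log2 fold change of -0.79. Cd36 encodes a fatty acid translocase of the cell membrane. It stood at 115 and 105 CPM in the Yap controls, 61.7 and 79.1 in the Yap1 knockouts, 47.6 and 62.2 in the Ctgf controls and 38.6 and 45.3 in those labelled Ctgf knockout. Knockout and control did not overlap in either line. Among the 13 members below both Yap controls, its value depended least on which control was used, with a log2 fold change of -0.65 ± 0.222 against both (adjusted p = 0.283 in edgeR), -0.71 against Yap control 1 and -0.60 against Yap control 2. In the Ctgf line it was -0.39 ± 0.222.

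Acsl1 encodes the main long-chain acyl-CoA synthetase of liver, which activates fatty acids with coenzyme A. Its levels were 327 and 487 CPM in the Yap controls, 194 and 275 in the Yap1 knockouts, 336 and 425 in the Ctgf controls and 267 and 273 in those labelled Ctgf knockout. Here too each knockout group lay below its controls without overlap. The log2 fold changes were -0.79 ± 0.284 in the Yap line (adjusted p = 0.302 in edgeR) and -0.49 ± 0.283 in the Ctgf line, and -0.47 against Yap control 1 alone.

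Fabp1, the abundant fatty acid binding protein of the liver cytosol, had the highest level per length of all members, with a median over the 8 libraries of 1348 CPM per kb of exon. It showed how far a value can rest on a single library. It stood at 732 and 3206 CPM in the Yap controls and at 698 and 594 in the Yap1 knockouts, and at 759 and 1105 against 462 and 1556 in the Ctgf line. The log2 fold change in the Yap line was -1.61 ± 0.736 against both controls and -0.18 against Yap control 1.

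The carnitine shuttle moves acyl groups into mitochondria, and its 4 members had a median log2 fold change of -0.31 in the Yap line, 0.11 against Yap control 1 alone and -0.70 against Yap control 2 alone. Cpt1a, the rate-setting step at the outer membrane, was among the steadiest members, at 386 and 471 CPM in the Yap controls, 393 and 440 in the Yap1 knockouts and 291 to 324 in the Ctgf line. Its log2 fold change was -0.04 ± 0.209 in the Yap line and 0.11 against Yap control 1 alone. Cpt2, the partner enzyme of the inner membrane, stood at 89.7 and 140 CPM in the Yap controls, 82.2 and 112 in the Yap1 knockouts, 78.1 and 83.9 in the Ctgf controls and 84.4 and 108 in those labelled Ctgf knockout. Its Yap line value was -0.24 ± 0.275 against both controls and 0.12 against Yap control 1. The exchanger between these enzymes, Slc25a20, had a log2 fold change of -0.39 ± 0.337 in the Yap line, which turned to 0.23 against Yap control 1 alone and was -0.85 against Yap control 2 alone.

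Crat, which makes and breaks acetylcarnitine, was the shuttle member that differed from both controls. It stood at 116 and 155 CPM in the Yap controls and at 73.0 and 89.6 in the Yap1 knockouts, where the groups do not overlap, and at 65.0 and 71.8 against 62.1 and 87.4 in the Ctgf line, where they do. In the Yap line it had a log2 fold change of -0.74 ± 0.249 (adjusted p = 0.278 in edgeR) and -0.51 against Yap control 1 alone. Of its exon bases, 8.72% overlap genes on the opposite strand, and it is not stated whether the counting used strand.

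Mitochondrial beta oxidation is the largest group, with 11 members. Their median log2 fold change in the Yap line was -0.48 against both controls, 0.010 against Yap control 1 and -0.87 against Yap control 2. Eci1, an isomerase that prepares unsaturated chains for the cycle, had the smallest p of the group. It stood at 46.0 and 90.9 CPM in the Yap controls, 32.9 and 34.6 in the Yap1 knockouts, 43.5 and 45.3 in the Ctgf controls and 42.8 and 47.1 in those labelled Ctgf knockout. Both Yap1 knockouts lay below all 6 other libraries, and those other than Yap control 2 lay within 42.8 to 47.1 CPM. In the Yap line it had a log2 fold change of -1.02 ± 0.301 (adjusted p = 0.235 in edgeR) and -0.45 against Yap control 1 alone.

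Decr1, the dienoyl-CoA reductase for polyunsaturated chains, also had both Yap1 knockouts below all other libraries, at 119 and 115 CPM where the Yap controls held 140 and 263 and the Ctgf line 125 to 152. Its log2 fold change was -0.78 ± 0.291 in the Yap line and -0.26 against Yap control 1 alone. Acaa2, the thiolase that ends each cycle, stood at 472 and 1154 CPM in the Yap controls and 448 and 458 in the Yap1 knockouts, so that the knockouts were close to the first control and far from the second. Its log2 fold change was -0.84 ± 0.398 against both and -0.058 against Yap control 1.

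The chain-length dehydrogenases differed among themselves. Acadl and Acadm, for long and medium chains, had log2 fold changes of -0.05 ± 0.287 and -0.21 ± 0.215 in the Yap line (0.36 and -0.039 against Yap control 1 alone), and Acads, for short chains, -0.61 ± 0.390 against both controls and 0.22 against Yap control 1 alone. Acadvl, for very long chains, was the most uneven. It stood at 151 and 572 CPM in the Yap controls, 186 and 67.0 in the Yap1 knockouts and 328 to 395 in the 4 libraries of the Ctgf line. The groups of the Yap line overlapped, and the log2 fold change of -1.52 ± 0.637 had an adjusted p of 0.355 in edgeR. Against Yap control 1 alone it was -0.25. Of the Acadvl exon bases, 42.9% are also covered by Dvl2 on the opposite strand, so its count is uncertain.

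The subunits of the trifunctional protein, Hadha and Hadhb, carry out the middle steps of the cycle. Their log2 fold changes in the Yap line were -0.48 ± 0.297 and -0.26 ± 0.227, and 0.010 and 0.031 against Yap control 1 alone. Per kb of exon, the median level of Hadha was 51.3 CPM and that of Hadhb 4.07. Of the stretches of 50 bases in the Hadhb transcripts, 19.7% also occur in transcripts of other genes, most of them in Gm13910, so its count is uncertain. The remaining members of the group, Eci2 and Etfdh (which passes electrons on to the respiratory chain), had log2 fold changes of -0.19 ± 0.350 and 0.06 ± 0.248, and 0.37 and 0.34 against Yap control 1 alone.

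Peroxisomal beta oxidation is covered by 4 members, all below 0 in the Yap line, with a median of -1.03 against both controls, -0.37 against Yap control 1 and -1.58 against Yap control 2. Ehhadh, the bifunctional enzyme and a classical PPAR-alpha target, was lower in the knockouts of both lines without overlap. It stood at 363 and 861 CPM in the Yap controls, 206 and 290 in the Yap1 knockouts, 282 and 523 in the Ctgf controls and 175 and 238 in those labelled Ctgf knockout. The log2 fold changes were -1.31 ± 0.465 in the Yap line (adjusted p = 0.301 in edgeR) and -0.96 ± 0.462 in the Ctgf line (adjusted p = 1). Against Yap control 1 alone the Yap value was -0.55. The other bifunctional enzyme, Hsd17b4, had 226 and 230 CPM in the Yap1 knockouts, below all other libraries (260 to 412), and a log2 fold change of -0.56 ± 0.252, or -0.20 against Yap control 1 alone.

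The thiolases Acaa1a and Acaa1b end the peroxisomal cycle and lie on chromosome 9 at chr9:119339676-119350299 and chr9:119148023-119157093 (GRCm38). Acaa1b stood at 85.2 and 379 CPM in the Yap controls, 22 and 41.3 in the Yap1 knockouts, 93.9 and 147 in the Ctgf controls and 65.1 and 93.2 in those labelled Ctgf knockout. Both Yap1 knockouts lay below all 6 other libraries. Against both controls it was at -2.87 ± 0.674 (adjusted p = 0.166 in edgeR) and -1.43 against Yap control 1 alone. Acaa1a did not show this: at 46.4 and 126 CPM in the Yap controls and 49.7 and 52.8 in the Yap1 knockouts, its groups overlapped, and the log2 fold change was -0.75 ± 0.400 against both controls and 0.14 against Yap control 1. The paralogs share sequence, 30.5% of the stretches of 50 bases of Acaa1b being found in Acaa1a, so their counts are uncertain.

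**Figure D3:**
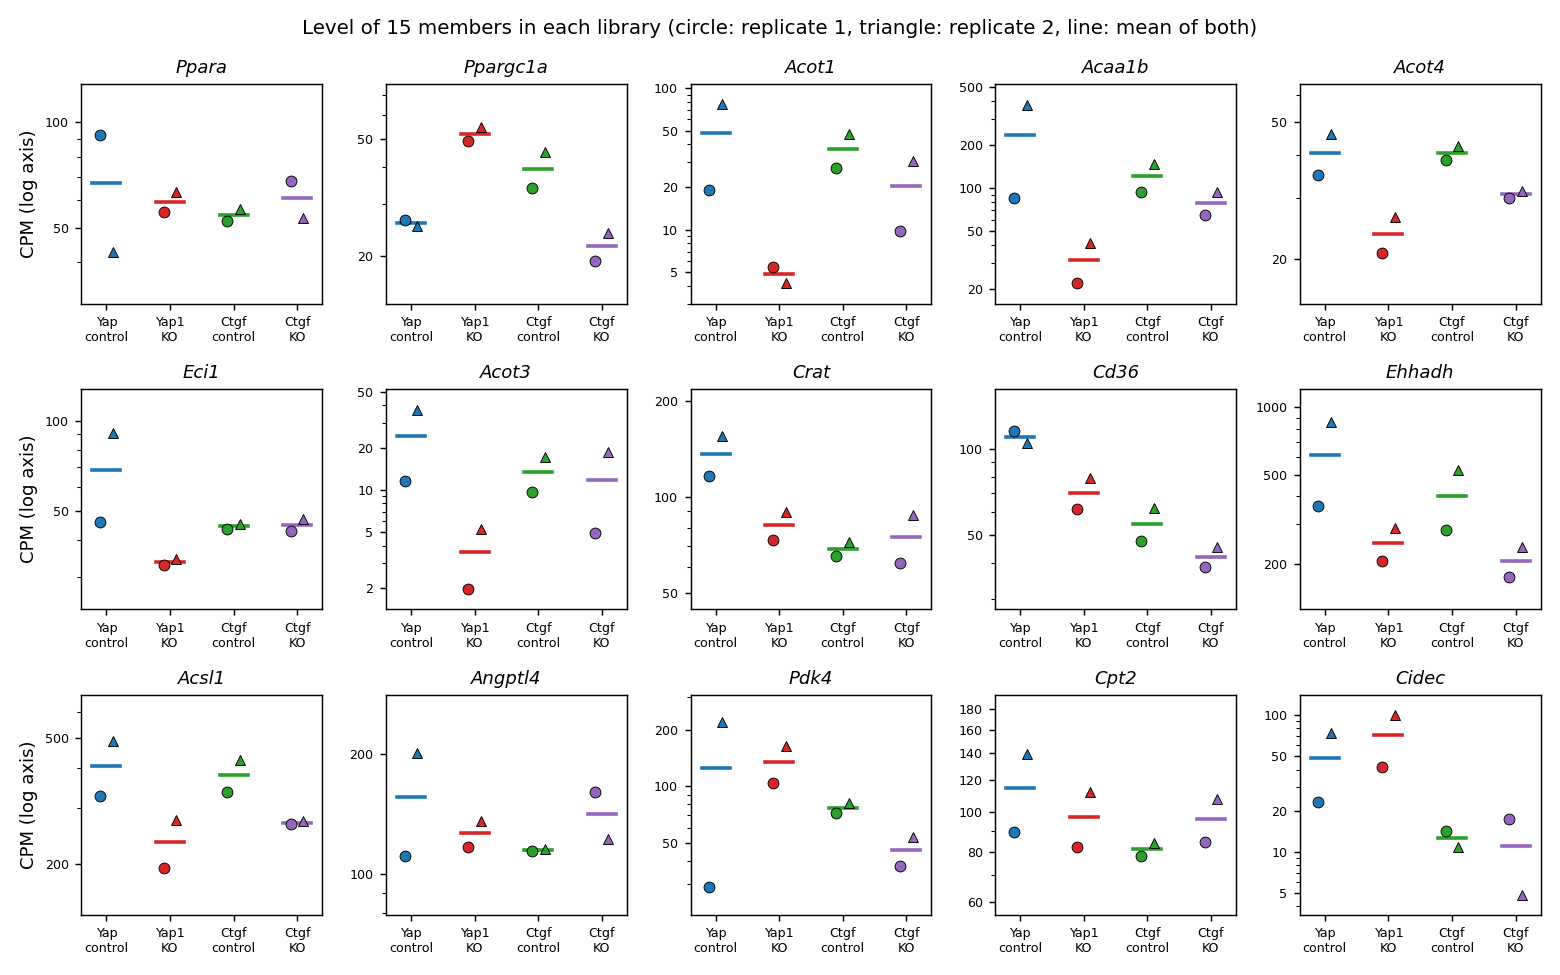
Level in CPM (log axis) of the 15 members named by rule in each of the 8 libraries, by group, with replicate 1 as circles, replicate 2 as triangles and the mean of both as a line; KO is knockout. Acot1, Acaa1b, Acot4 and Eci1 are lower in both Yap1 knockouts than in all other libraries, and Ppargc1a is higher there.

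The acyl-CoA thioesterases were the role with the lowest median in the Yap line, -1.77 against both controls, -1.12 against Yap control 1 and -2.20 against Yap control 2. The 4 genes lie in a cluster on chromosome 12, in the order Acot2, Acot1, Acot4 and Acot3 from 83987861 to 84060402 (GRCm38, all on the plus strand). Acot1, the cytosolic enzyme, stood at 19.2 and 76.7 CPM in the Yap controls and at 5.46 and 4.19 in the Yap1 knockouts. In the Ctgf line the controls held 27.4 and 47.4 CPM, and the libraries labelled knockout held 9.79 and 30.6. Both Yap1 knockouts were below every other library, and the log2 fold change was -3.31 ± 0.762 (adjusted p = 0.159 in edgeR), or -1.99 against Yap control 1 alone. Leaving out Yap control 2 and the library labelled Ctgf knockout 2 together kept -1.99, again with 1 Yap control.

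Acot3, a peroxisomal enzyme, was the rarest member per length, with a median of 3.08 CPM per kb of exon. It stood at 11.5 and 37.2 CPM in the Yap controls and 1.97 and 5.23 in the Yap1 knockouts, and at 9.69 and 17.0 against 4.90 and 18.6 in the Ctgf line. Its log2 fold change in the Yap line was -2.76 ± 0.820 (adjusted p = 0.238 in edgeR), and -1.67 against Yap control 1 alone. Acot4, also peroxisomal, differed less but with close replicates, at 35.0 and 46.1 CPM in the Yap controls, 20.8 and 26.5 in the Yap1 knockouts, 38.7 and 42.5 in the Ctgf controls and 30.0 and 31.5 in those labelled Ctgf knockout. All Yap1 knockout values were below all others, and knockout and control did not overlap in the Ctgf line either. The log2 fold changes were -0.78 ± 0.221 in the Yap line (adjusted p = 0.223 in edgeR) and -0.40 ± 0.220 in the Ctgf line, with -0.56 against Yap control 1 alone.

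Acot2, the mitochondrial enzyme and nearest relative of Acot1, did not share this pattern. It stood at 31.8 and 141 CPM in the Yap controls and at 71.0 and 86.7 in the Yap1 knockouts, between the controls, with a log2 fold change of -0.13 ± 0.563. Against Yap control 1 alone the value was 1.31, the opposite sign of its 3 neighbours. With the library labelled Ctgf knockout 2 also left out it kept that value, again with 1 Yap control. In Acot1, 19.2% of the stretches of 50 bases occur in other genes, and in Acot2 27.7%. Most of these are in each other, so the counts of both genes are uncertain. Acot3 and Acot4 overlap other annotated transcripts over 20.6% and 9.71% of their exon bases.

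The other target genes did not move as 1 group. Pdk4, the kinase that shuts off pyruvate dehydrogenase so that fat is burned instead of sugar, had the widest gap between the Yap controls as a ratio, at 28.8 and 221 CPM, with 105 and 165 in the Yap1 knockouts, 72.3 and 81.1 in the Ctgf controls and 37.5 and 53.5 in those labelled Ctgf knockout. The knockouts of the Yap line lay between their controls, while those of the Ctgf line lay below theirs. The log2 fold change in the Yap line was 0.11 ± 0.739 against both controls, 2.23 against Yap control 1 and -0.74 against Yap control 2. With Yap control 2 and the library labelled Ctgf knockout 2 both left out it stayed at 2.23, again with 1 Yap control.

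Angptl4, a secreted inhibitor of lipoprotein lipase, stood at 111 and 200 CPM in the Yap controls and 117 and 136 in the Yap1 knockouts, inside the range of the controls, and at 115 and 115 against 161 and 123 in the Ctgf line. Its log2 fold changes were -0.30 ± 0.296 and 0.30 ± 0.296, and against Yap control 1 alone the first turned to 0.19. Vnn1, a pantetheinase that strongly follows PPAR-alpha activity in liver, was at 15 and 77.3 CPM in the Yap controls and 11.4 and 15.7 in the Yap1 knockouts, and at 10.9 to 19.4 in the Ctgf line. Only Yap control 2 stood apart here. On the log2 scale the difference was -1.76 ± 0.646 against both controls and -0.15 against Yap control 1.

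Lipid droplet proteins were the role with the highest median in the Yap line, 0.21 for its 2 members. Plin2, which coats droplets in hepatocytes, was the second most abundant member per length (median 494 CPM per kb of exon). It stood at 944 and 2147 CPM in the Yap controls, 1056 and 1739 in the Yap1 knockouts and 1551 to 1802 in the Ctgf line, with a log2 fold change of -0.15 ± 0.413 in the Yap line and 0.57 against Yap control 1 alone. Cidec, which fuses droplets into larger ones, separated the lines more than the genotypes. It stood at 23.3 and 73.6 CPM in the Yap controls and 41.8 and 101 in the Yap1 knockouts, all above the 14.3 and 10.8 of the Ctgf controls and the 17.4 and 4.87 of the libraries labelled Ctgf knockout. On the log2 scale it differed by 0.56 ± 0.705 in the Yap line and 1.61 against Yap control 1 alone.

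In the Ctgf line, the members as a whole were near 0. Of the 34, 15 had a log2 fold change above 0 and 19 below, with a median of -0.042 against 0.0064 over all genes tested. At an adjusted p under 0.05, 0 members passed in edgeR, where 0% of all genes did, and 0 with DESeq2, where 0.0286% did. At an unadjusted p under 0.05, 0 members were higher, where 0.657% of all genes were, and 1 was lower (Ppargc1a), where 1.32% were. The 2 libraries labelled knockout lay below both controls for 11 members (16.8% of all genes) and above both for 6 (15.5% of all genes). The lower ones were Ppargc1a, Cd36, Acsl1, Cpt1a, Hadhb, Decr1, Ehhadh, Acaa1b, Acot2, Acot4 and Pdk4, and the higher ones Cpt2, Acadvl, Acadl, Acads, Acaa1a and Angptl4. Since Ctgf itself was above the controls in the library labelled Ctgf knockout 2, the members were also read from knockout 1 alone. There 11 members had a log2 fold change above 0 and 23 below, with a median of -0.10. The lowest, picked for their values in that fit, were Acot1 at -1.93, Acot3 -1.45, Ehhadh -1.20, Ppargc1a -1.03, Pdk4 -1.03 and Fabp1 -1.01. In knockout 2 alone these were -0.28, 0.49, -0.74, -0.71, -0.50 and 0.75. Over all members in knockout 2 alone, 16 lay above 0 and 18 below, with a median of -0.017.

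**Figure D4:**
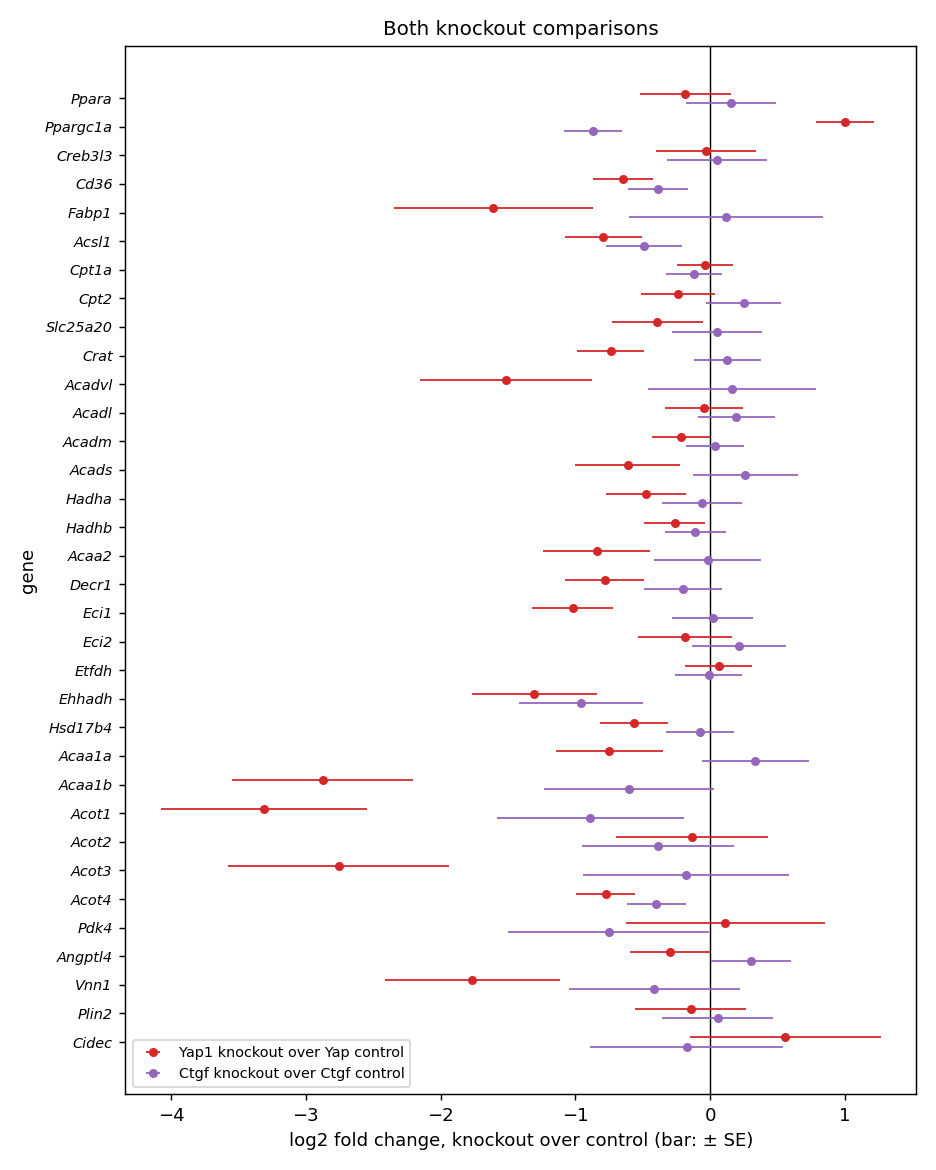
Log2 fold change with its SE for each of the 34 members (rows) in the Yap line (red, Yap1 knockout over Yap control) and in the Ctgf line (purple, library labelled Ctgf knockout over Ctgf control). Ppargc1a lies on opposite sides of 0, at 1.00 and -0.87. Many other members do so too, among them Fabp1 (-1.61 and 0.11) and Acadvl (-1.52 and 0.16) with larger SEs, and Eci1, Acaa1a, Crat and Pdk4. Acot1, Acaa1b and Acot3 reach the lowest values in the Yap line.

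The difference between the effects of the 2 lines was tested in the same fit. Of the 34 members, 28 had a lower log2 fold change in the Yap line than in the Ctgf line and 6 a higher one, with a median difference of -0.41. At an adjusted p under 0.05, 0 members differed in edgeR, where 0% of all genes did, and 1 with DESeq2 (Ppargc1a), where 1.01% did. At an unadjusted p under 0.05, 5 members were more negative in the Yap line, where 4.19% of all genes were, and 1 was more positive (Ppargc1a), where 4.68% were. These values share the Yap controls with the comparison above, and without Yap control 2 the median difference was -0.039. The largest negative differences were those of Acot3 (-2.58 ± 1.10), Acot1 (-2.42 ± 1.00) and Acaa1b (-2.27 ± 0.900), each with an adjusted p of at least 0.541 in edgeR.

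The control groups were compared as well, because the members might start from different levels in the lines. Here line, virus and any difference in handling cannot be told apart. In the Yap controls 30 of 34 members had higher levels than in the Ctgf controls and 4 had lower, with a median log2 fold change of 0.43 against 0.041 over all genes tested. At an adjusted p under 0.05, 0 members passed in edgeR, where 2.38% of all genes did, and 3 with DESeq2, where 10.9% did. At an unadjusted p under 0.05, 4 members were higher (Cd36, Crat, Cidec and Vnn1), where 12.2% of all genes were, and 1 was lower (Ppargc1a), where 10.4% were. The Yap controls lay above both Ctgf controls for 6 members (26.1% of all genes) and below both for 1 (27% of all genes). Cd36 came nearest to the threshold, with a log2 fold change of 1.01 ± 0.223 and an adjusted p of 0.0608 in edgeR, followed by Crat with 0.99 ± 0.250 and 0.0808. Without Yap control 2 the median of the members was -0.19.

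Across all 8 libraries, 6 members had both Yap1 knockouts below every other library, where 11.4% of all genes did: Decr1, Eci1, Hsd17b4, Acaa1b, Acot1 and Acot4. Of these, Eci1, Acaa1b, Acot1 and Acot4 were described above with all 8 values.

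A list of 100 further genes of the pathway was read in the same way, and 98 of them were tested. In the Yap line 65 were below 0 and 33 above, the median being -0.28 on the log2 scale, and 0 passed the threshold, where 0.0286% of all genes did. At an unadjusted p under 0.05, 20 were lower and 5 higher, where 7.14% and 6.64% of all genes were. Against Yap control 1 alone the sign of the median turned: 56 were above 0 and 42 below, with a median of 0.063, and at an unadjusted p under 0.05, 13 were higher and 12 lower, where 7.76% and 7.02% of all genes were. In that fit, which left 1 Yap control, Hilpda, a hypoxia-induced droplet protein, rose by 2.46 on the log2 scale. In the Ctgf line the median was 0.036 and 0 passed. By list, the Yap line medians ran from -1.16 for the 9 genes of omega oxidation to 0.29 for the 19 receptors and cofactors.

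The genes named next were picked for the smallest p-values of their lists in this comparison, so their separation from the Yap controls follows in part from the choice. Among ketone body genes, Bdh1, which interconverts the ketone bodies, stood at 109 and 226 CPM in the Yap controls and 49.5 and 57.8 in the Yap1 knockouts (log2 fold change -1.64 ± 0.361, adjusted p = 0.153 in edgeR, and -1.02 against Yap control 1 alone). The transporter Slc16a6 was at 0.93 ± 0.261, and at 1.10 against Yap control 1. In omega oxidation, Cyp4f14 stood at 33.6 and 32.7 CPM against 13.5 and 9.66 (-1.52 ± 0.346, and -1.54 against Yap control 1 alone), with Cyp4f15 at -1.16 ± 0.275 and -0.92. The Yap controls were alike for Cyp4f14, unlike for most members. Mgll, which cleaves monoglycerides, stood at 185 and 360 CPM against 92.1 and 89.1 (-1.59 ± 0.341, adjusted p = 0.147 in edgeR, and -1.03 against Yap control 1 alone).

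Secreted factors gave both a steady and an unsteady example. Angptl8, an insulin-responsive regulator of lipoprotein lipase, stood at 28.3 and 24.4 CPM in the Yap controls and 8.43 and 6.92 in the Yap1 knockouts, and at 43.3 and 43.5 against 32.1 and 76.5 in the Ctgf line. Its log2 fold change in the Yap line was -1.78 ± 0.381 (adjusted p = 0.147 in edgeR), and -1.88 against Yap control 1 alone. Fgf21, a fasting hormone and PPAR-alpha target, stood at 8.19 and 48.5 CPM in the Yap controls and 4.81 and 5.61 in the Yap1 knockouts, and its -2.44 ± 0.738 became -0.65 against Yap control 1 alone.

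The remaining genes named for their lists had these log2 fold changes in the Yap line, given with the value against Yap control 1 alone in brackets. In peroxisomes, Crot and Abcd2 were at -1.0 ± 0.332 (-0.41) and -0.99 ± 0.409 (-0.71). In mitochondria, the dehydrogenase Hadh was at -0.97 ± 0.230 (-0.68) and the synthetase Acsl4 at 0.88 ± 0.256 (0.67). The uptake gene Slc27a2 was at -1.17 ± 0.313 (-0.71). Of the droplet genes, Fitm2 was at -0.66 ± 0.189 (-0.49) and Hilpda at 1.32 ± 0.476 (2.46). Of the receptors and cofactors, Nr1h3 was at -0.76 ± 0.206 (-0.59) and Lpin1, a PPAR-alpha coactivator and lipid phosphatase, at 1.00 ± 0.363 (1.20). None of these passed the threshold against both controls. Between the controls of the lines, 3 of the 98 genes were higher in the Yap controls past the threshold: Cyp4a12a (2.77 ± 0.490, adjusted p = 0.0384 in edgeR), Cyp4a12b (4.39 ± 0.715, adjusted p = 0.0334) and Lpin1 (1.92 ± 0.373, adjusted p = 0.0469). With a Yap1 knockout or a Ctgf control left out 0 of the 3 passed, and without Yap control 2 Lpin1 had an adjusted p of 0.0607. The Cyp4a12 genes are near-identical copies, so their counts are uncertain. Lpin1 had 36.9 and 33.6 CPM in the Ctgf controls, and 76.5 and 163 in those labelled Ctgf knockout. Its value in the Ctgf line was 1.77 ± 0.372, with an adjusted p of 1 in edgeR and 0.0281 with DESeq2. It was 1.12 for knockout 1 alone and 2.23 for knockout 2 alone, whose Ctgf goes against its label.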

How the data were processed

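The authors deposited whole-number read counts per gene symbol for 8 mouse liver libraries. The submitters' processing notes name STAR 2.6.0a, HTSeq 0.6.1, bcl2fastq 2.20.0.422 and the build mm10 (GRCm38). Not given in the sources used here: annotation, strand setting and read filters. The number of table columns not used was 0.

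Counts were tested with edgeR 4.0.16 (R 4.3.3) by its quasi-likelihood F test, with TMM scaling, edgeR's filter on low counts (13999 genes left) and 1 fit of the 4 groups (4 residual degrees of freedom, biological coefficient of variation 27.2%). P-values were adjusted by Benjamini-Hochberg over all genes tested, with a threshold of 0.05. SE is the log2 fold change divided by the root of F. No reads carry molecular identifiers. On data simulated for the Yap comparison (13835 genes), 75.8% of genes changed by 2 and 88.9% of those changed by 3 on the log2 scale were called. Of the unchanged genes, 11 were called. The simulation held no library set apart like Yap control 2, so these shares may overstate recovery for the members. Alternatives used limma 3.58.1 and DESeq2 1.42.0.

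Positions come from GENCODE M21 and promoter sequences from RefSeq. Values per library were given for Ppara, for members past the threshold, for the 10 with the smallest p in each knockout comparison and for roles with no example (15 members), and for others chosen after their values were seen. Of the further genes, those past the threshold and the 2 with the smallest p per list were named. The members and lists were chosen with earlier results of these data known.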

Additional observations from a re-analysis of the deposited data

Results flagged for a closer look

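Ppargc1a, the gene of the coactivator PGC-1 alpha, was flagged because its groups did not overlap in either line, in opposite directions. Both Yap1 knockouts were above both Yap controls, where 23.6% of all genes were. Both libraries labelled Ctgf knockout were below both Ctgf controls, where 16.8% of all genes were. The tests given below use the same values as this choice. The library labelled Ctgf knockout 2 held more Ctgf than either Ctgf control, which goes against its label. Ppargc1a was also lower in the Yap controls than in the Ctgf controls, by -0.61 ± 0.217 on the log2 scale. The difference between the effects was 1.87 on the log2 scale. It was tested in the same edgeR fit and did not pass the threshold (adjusted p = 0.271), while DESeq2 gave an adjusted p of 0.000387. Over the alternatives run, the value was between 1.62 and 2.03 and the adjusted p between 0.000387 and 0.969.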

How the results depend on the processing

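Alternatives were other scalings (RLE, upper quartile), DESeq2, limma-voom, other low-count filters, only the libraries of a comparison (not possible for the difference between lines), a replicate block, each library left out in turn, and Yap control 2 left out together with the library labelled Ctgf knockout 2. Deviations of same-numbered libraries correlated across genes at 0.154 in the Yap line and 0.103 in the Ctgf line, with 2 pairs each. The titles of the Yap controls name a numbered knockout, and that number is found on its same-numbered knockout library for replicate 2 but not for replicate 1. Members past the threshold in the Yap comparison numbered 0 in the fit reported, 4 with DESeq2, 1 with the replicate block (Acot3, adjusted p = 0.0496), 5 without both libraries and 0 to 22 with 1 library left out, the 22 being without Yap control 1. Their median was -0.015 without both libraries and -0.87 to -0.014 with 1 left out. For the difference between lines the members numbered 1 with DESeq2, 3 without both and 0 to 10 with 1 left out, with medians of 0.085 without both and -0.81 to -0.039 with 1 left out. Between the controls they numbered 1 with upper-quartile scaling, 3 with DESeq2, 1 with the replicate block, 6 without both and 0 to 17 with 1 left out, with medians of -0.19 without both and -0.19 to 0.82 with 1 left out. Upper-quartile scaling moved the median of all genes in that comparison to 0.18. For the further genes, the Yap comparison gave 10 with DESeq2, 16 without both and 0 to 48 with 1 left out, and the Ctgf comparison 1 with DESeq2. The difference between lines gave 2 with DESeq2, 4 without both and 0 to 29 with 1 left out, with medians of 0.10 without both and -0.68 to -0.034 with 1 left out. Between the controls, 3 in the fit reported became 17 with DESeq2, 0 with only those libraries, 5 with the replicate block, 34 without both and 0 to 41 with 1 left out. Of the 22 members at least as far from 0 as their SE in the Yap comparison, 6 turned without Yap control 2, and the same 6 without both libraries: Slc25a20, Acads, Hadha, Hadhb, Acaa1a and Angptl4. Angptl4 turned to 0.19 without both libraries and to between -0.69 and 0.19 with 1 left out. Acot2, closer to 0 than its SE in the fit reported, was at 1.31 and past the threshold without both. For 35 values of the genes given in full, there were 594 values under an alternative. Of these, 549 were counted as unchanged, 26 passed the threshold newly, 16 no longer passed and 3 turned (Angptl4 and Acot2). A change of sign counted as a turn only where the reported value was at least as far from 0 as its SE, or a fit passed the threshold. The 549 therefore include other values that changed sign, such as Cpt2 and Plin2, at 0.12 and 0.57 without Yap control 2. The cause was not tested. Where a group was left with 1 library, it was assumed to vary like the other groups.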
